A study of Mus musculus with 16 samples.

Results

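The p53 target genes described here are 34 genes taken by symbol from a count table of 55487 mouse genes. Trp53, which encodes p53 itself, and 3 genes that feed back on it, Mdm2, Mdm4 and Ppm1d, were grouped as regulators. The targets proper were grouped by the process they are best known for: 7 genes of cell cycle arrest, 13 of cell death, 5 of DNA repair and 5 of metabolism or defence against oxidants. Of the 34 genes, 33 had enough reads to be tested. The exception was Pmaip1, whose product Noxa is a death-promoting BCL2 family protein, with 0 to 7 counts in each library.

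p53 is a transcription factor that is held at a low level by the ubiquitin ligase encoded by Mdm2, which is itself a p53 target, so that the 2 form a feedback loop. DNA damage, oncogene activity and ribosome stress free p53 from this ligase, and most of its regulation is on the protein and not on Trp53 mRNA. The genes it then switches on stop the cell cycle, above all through the CDK inhibitor p21 encoded by Cdkn1a, help repair DNA or prime the cell to die.

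The libraries came from mouse leukaemia cells that express CBFB::MYH11, the fusion that an inverted chromosome 16 makes in human myeloid leukaemia, together with GFP. Per the design text the cells had been given a doxycycline-inducible shRNA against MYH11 and grown in congenic mice, and GFP-positive cells were sorted at harvest. Bone marrow control and spleen control mice drank 5% sucrose for 7 days, and bone marrow doxycycline and spleen doxycycline mice drank 3 mg/ml doxycycline in the same sucrose for as long, with 3 libraries per group. The 4 secondary disease libraries are from spleen, from shRNA-transduced and doxycycline-treated cells of another cohort taken when fatal disease showed. Their treatment is listed as for the 7-day doxycycline groups, 3 mg/ml doxycycline in 5% sucrose. The sources used here give no time of harvest for them. The labels of both control groups name cells expressing the fusion and no shRNA, whereas the design text gives the construct to all cells. There was no doxycycline group without the shRNA, so drug and knockdown cannot be told apart. Nothing in the labels says that libraries of a group are from different mice, and p-values then measure the spread between these libraries. The sample titles do not say whether bone marrow and spleen libraries are from the same mice. The sources used here name neither the promoter driving the shRNA nor the number of primary leukaemias behind the cells.

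Total counts ran from 12.26 to 39.42 M per library. Mouse Myh11 had 0 to 9 counts in each library; whether reads of the fusion's MYH11 end are counted there is not known, so it checks no label. Secondary disease replicate 4 had the lowest total and stood apart in 8 of the 34 genes, a share not counted over all genes. It had 84.7 CPM (counts scaled to library size) of Plk2 against 0.0782 to 0.952 in the other 3. Results for the 34 genes are given with and without it where a call depends on it. Among markers of the leukaemia and its progenitors, the sum of 9 genes was 1983 to 2696 CPM in 14 libraries, 654 CPM in spleen doxycycline replicate 2 and 1001 CPM in secondary disease replicate 4. Il1rl1 was the most abundant of these 9. Hoxa9 was at 0 in at least 1 library of every group, and Cd34 in at least 1 of each spleen group and of secondary disease, with group means of at most 0.0614 and 0.544 CPM. Marker sums that did not overlap between 2 groups compared are given beside the result.

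Promoters of the 3 genes to which the results return most often, the arrest gene Cdkn1a, the feedback gene Mdm2 and the repair gene Ercc5, are shown from 250 bases before the annotated start up to it. They are from RefSeq (GRCm38.p6), read 5′ to 3′ on the gene's own strand. Capitals mark exact matches to the p53 consensus decamer, the palindromic unit of which a p53 site holds a pair. Decamers with a mismatch stay in lower case, also where they adjoin a marked one, so the capitals need not show a whole site. The Cdkn1a stretch lies at chr17:29090729-29090978 (plus strand), before the more distal of its 2 annotated starts. The Mdm2 stretch is at chr10:117710759-117711008 (minus strand) and the Ercc5 stretch at chr1:44147494-44147743 (plus strand).
Cdkn1a: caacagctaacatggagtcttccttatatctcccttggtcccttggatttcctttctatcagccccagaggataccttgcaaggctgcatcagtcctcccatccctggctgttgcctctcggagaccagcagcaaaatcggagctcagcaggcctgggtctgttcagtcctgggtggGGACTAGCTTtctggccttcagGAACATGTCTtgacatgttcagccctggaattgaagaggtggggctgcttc
Mdm2: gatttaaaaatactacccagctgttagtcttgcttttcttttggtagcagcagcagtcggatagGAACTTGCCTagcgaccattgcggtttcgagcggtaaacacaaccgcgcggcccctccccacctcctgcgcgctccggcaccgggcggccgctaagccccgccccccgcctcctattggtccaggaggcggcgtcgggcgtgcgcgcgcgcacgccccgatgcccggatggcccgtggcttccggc
Ercc5: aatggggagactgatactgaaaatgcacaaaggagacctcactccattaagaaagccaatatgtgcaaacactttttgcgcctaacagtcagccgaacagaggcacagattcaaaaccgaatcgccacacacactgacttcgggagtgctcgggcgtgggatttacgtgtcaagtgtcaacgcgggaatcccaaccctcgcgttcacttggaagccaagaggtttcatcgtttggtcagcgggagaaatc
Cdkn1a held a pair of decamers starting 73 and 51 bases before the start, Mdm2 a single decamer 186 bases before it, and Ercc5 none. No decamer was in the stretch before the other annotated start of Cdkn1a. Windows of 300 bases, from 250 before to 50 after the start, were at hand for 26 of the 34 genes. At least 1 decamer was in a window of 10 of these 26 genes (38.5%), against 9.55% of the 27025 genes with a window. A pair of decamers at most 13 bases apart was in 1 of the 26, Cdkn1a, against 0.074% of all genes. These are matches of letters: the genes are listed for being p53 targets, so the share is a description of the list, and a window without the decamer says nothing of sites elsewhere.

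Levels per transcript length, in TPM, spanned more than 3 orders of magnitude among the genes in bone marrow controls. Rps27l, which encodes a ribosomal protein-like factor, had the highest level, at 569 ± 78.1 TPM (SD, n = 3), followed by Trp53 at 231 ± 32.2 TPM and the desmosome-linked death gene Perp at 184 ± 26.8 TPM. Cdkn1a stood at 66.5 ± 36.8 TPM and Mdm2 at 54.1 ± 12.2 TPM. At the low end, the death receptor gene Tnfrsf10b had 0.123 ± 0.0635 TPM. Apart from Pmaip1, 5 more genes were under 1 TPM there: Tnfrsf10b, the kinase gene Plk2, the epoxide hydrolase gene Ephx1, and the receptor genes Eda2r and Fas. All values below are CPM scaled by TMM, a correction for library composition, and differences are log2 fold changes with their standard errors from edgeR's quasi-likelihood test, called at a p under 0.05 after Benjamini-Hochberg adjustment over 14435 genes.

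Trp53 mRNA was nearly level across the groups. It stood at 295, 260 and 296 CPM in bone marrow controls, 272, 282 and 287 CPM in bone marrow doxycycline, 309, 304 and 315 CPM in spleen controls, 312, 321 and 214 CPM in spleen doxycycline and 305, 264, 274 and 234 CPM in secondary disease. The highest and lowest libraries, 321 and 214 CPM, were of the same group. Its log2 fold change lay between -0.20 and 0.13 in the 7 comparisons, and in none did it pass the test. Its standard errors were 0.14 to 0.21. The gene (ENSMUSG00000059552) is on chromosome 11, 69580359 to 69591873, plus strand (GRCm38).

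**Figure D1:**
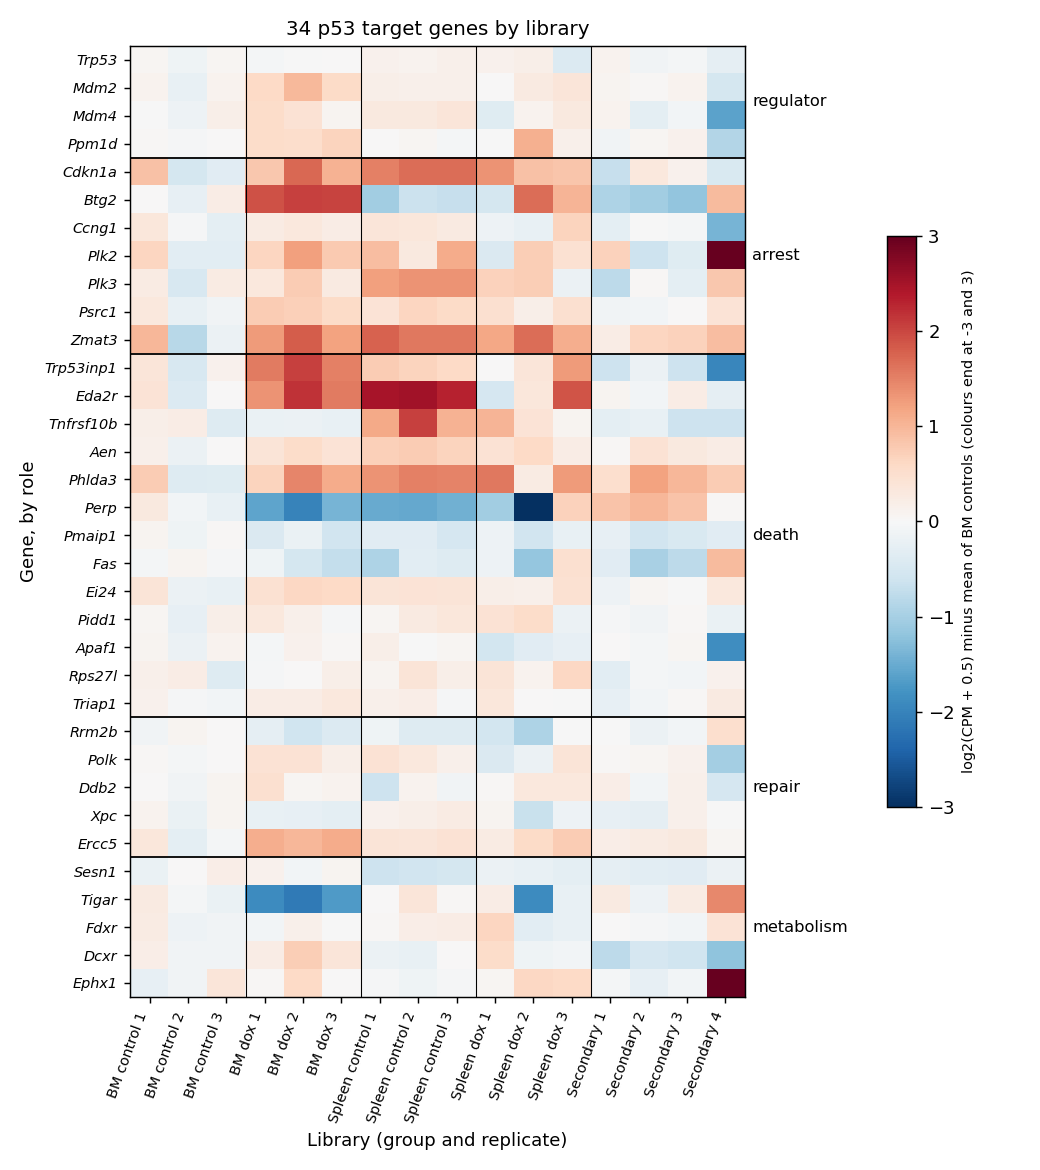
Each row is 1 of the 34 genes, ordered by role, and each column 1 of the 16 libraries. Colour is log2(CPM + 0.5) minus the mean of the 3 bone marrow controls. Trp53 stays pale throughout, while Cdkn1a, Zmat3, Phlda3 and Eda2r are red in bone marrow doxycycline and in spleen controls. Secondary disease replicate 4 is the deep red column for Plk2 and Ephx1. The colour scale ends at -3 and 3.

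In the tissue comparison, between spleen and bone marrow leukaemia of mice without doxycycline, several arrest and death genes had higher values in spleen. None of the 33 genes tested was called in either direction by edgeR, where 0.0762% of all genes were called higher and 0.111% lower. The DESeq2 Wald test called 5 higher and 1 lower, and limma-voom 4 and 1, with the shares of all genes under these tests not given here. Before adjustment, 12 of 33 had a p under 0.05, against 999 of 14435 genes. The libraries of the 2 tissues did not overlap in 15 genes higher in spleen, against 16.3% of all genes, and in 5 lower, against 16.5%. The median log2 fold change was 0.20 over the 33 genes and -0.01 over all genes.

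Cdkn1a (ENSMUSG00000023067, chromosome 17, 29090976 to 29100727, plus strand) had 135, 51.1 and 58.1 CPM in bone marrow controls and 213, 237 and 237 CPM in spleen controls. All 3 spleen libraries were above all 3 bone marrow libraries, and replicate 1 stood out among the latter. The log2 fold change was 1.49 ± 0.37 with an adjusted p of 0.147 in edgeR, and the DESeq2 Wald test gave 0.0049 and limma-voom 0.0359. In the annotation 1 gene on the other strand overlaps Cdkn1a, as is the case for Tigar, Apaf1, Ei24, Mdm4, Rrm2b, Plk3, Ddb2 and Polk. The overlapping gene is protein-coding for Plk3 (Tctex1d4), Ddb2 (Acp2) and Polk (Gm17622). The sources used here do not say whether counting kept strand.

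Among the 7 arrest genes, 4 were apart and higher in spleen and 1 was apart and lower, beside 16.3% and 16.5% of all genes. Their median log2 fold change was 1.28. Zmat3, an RNA-binding protein that acts in p53-driven tumour suppression, had 9.40 to 34.1 CPM in bone marrow and 52.1 to 58.9 CPM in spleen controls (log2 1.48 ± 0.37, adjusted p = 0.153). The stress kinase gene Plk3 had 1.57 to 2.90 and 6.29 to 6.87 CPM (log2 1.44 ± 0.46, adjusted p = 0.329), and Psrc1, a microtubule regulator, 119 to 172 and 182 to 217 CPM (log2 0.53 ± 0.17, adjusted p = 0.326). Btg2, an antiproliferative gene that speeds mRNA decay, was the arrest gene with lower values in spleen, at 2.07 to 2.88 against 4.00 to 5.71 CPM (log2 -0.92 ± 0.62, adjusted p = 1). Ccng1, which encodes cyclin G1, and Plk2 overlapped between the tissues.

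Among the 12 death genes tested, 5 were apart and higher in spleen and 2 apart and lower, beside 16.3% and 16.5% of all genes. Their median log2 fold change was 0.30. The nuclease gene Aen had 60.6 to 75.9 CPM in bone marrow and 109 to 115 CPM in spleen controls (log2 0.71 ± 0.13, adjusted p = 0.0557). Eda2r, a receptor of the TNF receptor family, had 1.84, 0.822 and 1.28 CPM against 9.37, 9.58 and 8.20 CPM (log2 2.78 ± 0.61, adjusted p = 0.0933), the largest log2 fold change among the 33 genes in this comparison. Phlda3, an inhibitor of AKT signalling, had 18.3 to 41.2 against 62.5 to 69.8 CPM (log2 1.36 ± 0.36, adjusted p = 0.179). In the opposite direction Perp had 209 to 298 CPM in bone marrow and 83.3 to 88.9 CPM in spleen (log2 -1.52 ± 0.67, adjusted p = 0.663). Aen, Eda2r and, downward, the stress-sensor gene Sesn1 (59.7 to 78.9 against 44.6 to 47.7 CPM, log2 -0.58 ± 0.12) were called when secondary disease replicate 4 was left out of the fit, with adjusted p of 0.0199, 0.0347 and 0.0225. Zmat3 was called without bone marrow control replicate 1.

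**Figure D2:**
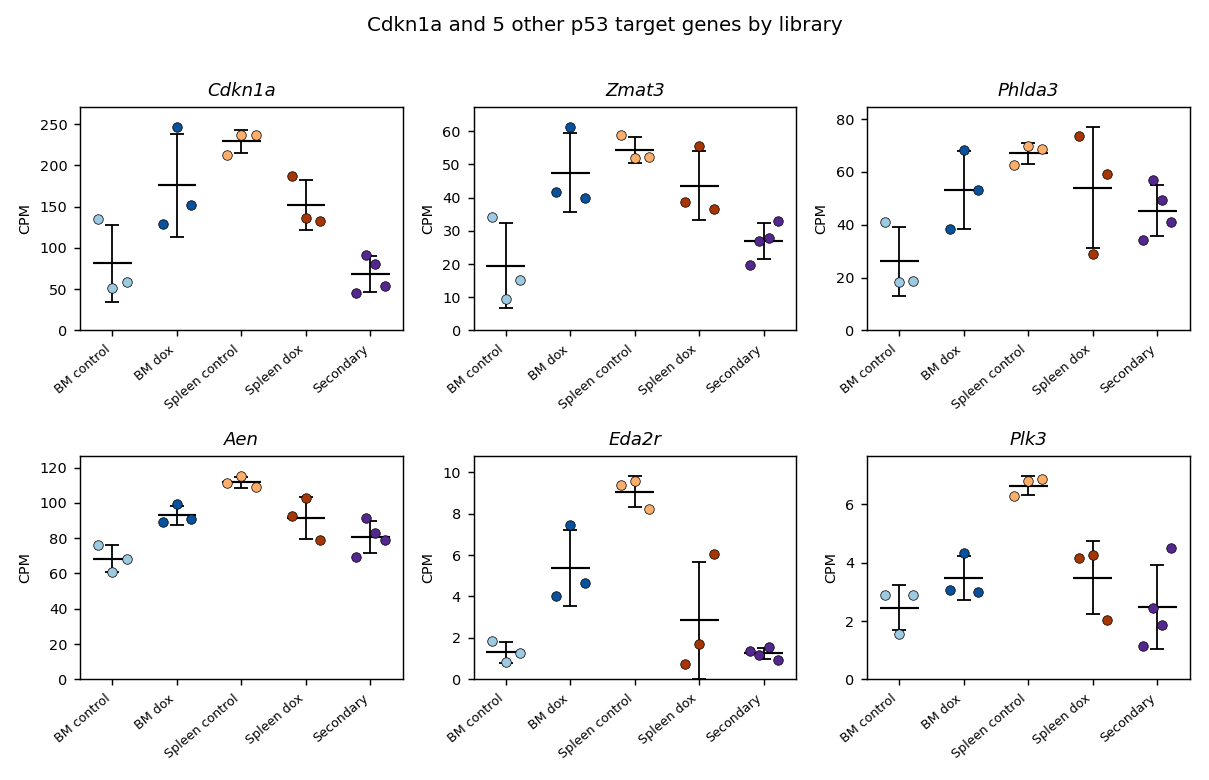
CPM (linear axis from 0) of Cdkn1a, Zmat3, Phlda3, Aen, Eda2r and Plk3 in each of the 16 libraries. Points are libraries, long bars group means and whiskers the SD; the 6 genes were picked after their values were seen. The 3 spleen controls lie close together and above the 3 bone marrow controls in every panel, as in Cdkn1a at 213 to 237 against 51.1 to 135 CPM.

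Of the 5 repair genes, 3 were apart and higher in spleen and 1 apart and lower, beside 16.3% and 16.5% of all genes. Their median log2 fold change was 0.19. The values ran from -0.31 for the ribonucleotide reductase gene Rrm2b to 0.37 for Ercc5, which encodes the nucleotide excision endonuclease XPG. Of the regulators, Mdm2 had 95.5, 76.1 and 94.9 CPM in bone marrow controls and 99.8, 98.4 and 98.5 CPM in spleen controls; these are apart but differ by 0.16 ± 0.18 on the log2 scale. Neutrophil markers differed between the tissues: the sum of 11 genes, of which Ngp was the most abundant, was 923 to 1380 CPM in bone marrow controls and 53.2 to 170 CPM in spleen controls. The sum of 9 stromal and endothelial genes was 107 to 127 and 79.4 to 84.7 CPM, and that of the progenitor genes 2273 to 2502 and 2610 to 2696 CPM. The part of these markers in the differences was not tested. In bulk libraries, fewer cells of a kind and less RNA per cell cannot be told apart.

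Under doxycycline in bone marrow, 4 p53 pathway genes rose and 1 fell. Mdm2, the arrest gene Psrc1, the death gene Trp53inp1 and the repair gene Ercc5 were called higher, and the glycolysis regulator Tigar lower, by edgeR. That is 4 and 1 of 33 genes tested, against 3.96% of all genes called higher and 2.61% called lower. The groups did not overlap in 14 genes higher under doxycycline, against 23.1% of all genes, and in 5 lower, against 24.7%. The median log2 fold change was 0.37 over the 33 genes and -0.02 over all genes, and 26 of the 33 were above 0. This comparison and that between tissues share the bone marrow controls.

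The count depends on single libraries. Without secondary disease replicate 4, which takes no part in this comparison but enters the estimate of spread, 9 genes were called higher: the 4 above with Aen, Btg2, Eda2r, Ei24 and Zmat3. Without bone marrow control replicate 1, 5 were called higher, Cdkn1a, Ei24, Ercc5, Psrc1 and Zmat3, and none lower. Without bone marrow control replicate 2, 0 genes were called in either direction, and without bone marrow control replicate 3 or any of the 3 doxycycline libraries Ercc5 was the only gene called. The DESeq2 Wald test called 11 higher and limma-voom 7, with Tigar lower in both. The shares of all genes called under these other fits are not given here, so the counts do not rank the strength of response.

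Ercc5 (ENSMUSG00000026048, chromosome 1, 44147744 to 44181260, plus strand) rose from 42.1, 27.1 and 31.7 CPM in bone marrow controls to 71.2, 66.0 and 71.7 CPM under doxycycline. The lowest doxycycline library was above the highest control. The log2 fold change was 1.05 ± 0.17, a 2.07-fold rise, with an adjusted p of 0.00552. It was the only repair gene called: the damage recognition gene Xpc had 16.2 to 20.1 CPM in controls and 15.1 to 15.9 CPM under doxycycline (log2 -0.27 ± 0.19, adjusted p = 0.468), Ddb2, another damage recognition gene, 7.50 to 8.59 and 8.41 to 11.4 CPM, the translesion polymerase gene Polk 29.9 to 31.9 and 34.9 to 42.0 CPM, and Rrm2b 15.3 to 17.5 and 10.8 to 13.5 CPM.

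Mdm2 (ENSMUSG00000020184, chromosome 10, 117688875 to 117710758, minus strand) rose from 95.5, 76.1 and 94.9 CPM to 135, 175 and 132 CPM. The groups did not overlap. The log2 fold change was 0.73 ± 0.18, or 1.66-fold, with an adjusted p of 0.0291. The phosphatase gene Ppm1d, which shuts off p53 signalling, was apart as well, at 27.1 to 28.4 and 40.3 to 44.7 CPM, but was not called (log2 0.59 ± 0.27, adjusted p = 0.216). Mdm4, which encodes the partner of the Mdm2 protein, had 208 to 261 and 246 to 342 CPM, with overlap.

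Of the 7 arrest genes all had a log2 fold change above 0, with a median of 1.11, and 1 was called. Psrc1 rose from 172, 119 and 128 CPM to 234, 226 and 206 CPM (log2 0.67 ± 0.17, adjusted p = 0.0336), with no overlap. Cdkn1a had 135, 51.1 and 58.1 CPM in controls and 129, 246 and 152 CPM under doxycycline. Its groups overlapped by 1 library, control replicate 1, and the log2 fold change of 1.11 ± 0.36 was not called (adjusted p = 0.0843). Without that library it was 1.70, with an adjusted p of 0.0333.

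The same control replicate 1 had the highest CPM of its group in Zmat3, Phlda3, Eda2r and Aen too. It was also the highest in the genes called higher, Psrc1, Trp53inp1, Ercc5 and, by a narrow margin, Mdm2, but not in Btg2. Doxycycline replicate 2 had the highest CPM of its group in Cdkn1a, Zmat3, Phlda3, Eda2r, Mdm2 and Trp53inp1. Zmat3 had 9.40 to 34.1 CPM in controls and 39.8 to 61.2 CPM under doxycycline (log2 1.28 ± 0.36, adjusted p = 0.0507). Btg2 showed a wide gap, 4.00 to 5.71 against 19.4 to 21.6 CPM, with a log2 fold change of 2.09 ± 0.63 and an adjusted p of 0.0630. With secondary disease replicate 4 left out, which had 9.80 CPM against 1.83 to 2.32 CPM in the other 3, the standard error was 0.41 and the adjusted p 0.00613.

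Of the 12 death genes tested, 9 had a log2 fold change above 0 and 1 was called. Trp53inp1, which links p53 to death and autophagy, rose from 40.5, 22.4 and 34.6 CPM to 93.9, 132 and 90.5 CPM. The doxycycline libraries were all more than 2 times as high as the highest control. The log2 fold change was 1.70 ± 0.40, or 3.25-fold, with an adjusted p of 0.0250. Eda2r had 1.84, 0.822 and 1.28 CPM against 4.01, 7.44 and 4.66 CPM, apart but not called (log2 2.03 ± 0.60, adjusted p = 0.0581).

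Smaller gaps without a call were seen in Aen, at 60.6 to 75.9 and 89.0 to 99.2 CPM (log2 0.45 ± 0.13, adjusted p = 0.0630), and in Ei24, an endoplasmic reticulum gene induced in p53-driven death, at 37.6 to 58.2 and 61.1 to 67.7 CPM (log2 0.54 ± 0.17, adjusted p = 0.0778). Phlda3 had 18.3 to 41.2 and 38.5 to 68.2 CPM, with overlap (log2 1.03 ± 0.36, adjusted p = 0.104). Perp was apart and lower, at 209 to 298 and 60.6 to 92.4 CPM (log2 -1.66 ± 0.68, adjusted p = 0.164). Apaf1, the scaffold of the apoptosome, had 111 to 135 and 122 to 138 CPM, and its log2 fold change was 0.03 ± 0.33. Pidd1, a scaffold for caspase activation, Rps27l and the apoptosis inhibitor gene Triap1 differed by 0.03 to 0.25 on the log2 scale. Fas and Tnfrsf10b had at most 22 counts in any bone marrow library and say little at this depth.

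**Figure D3:**
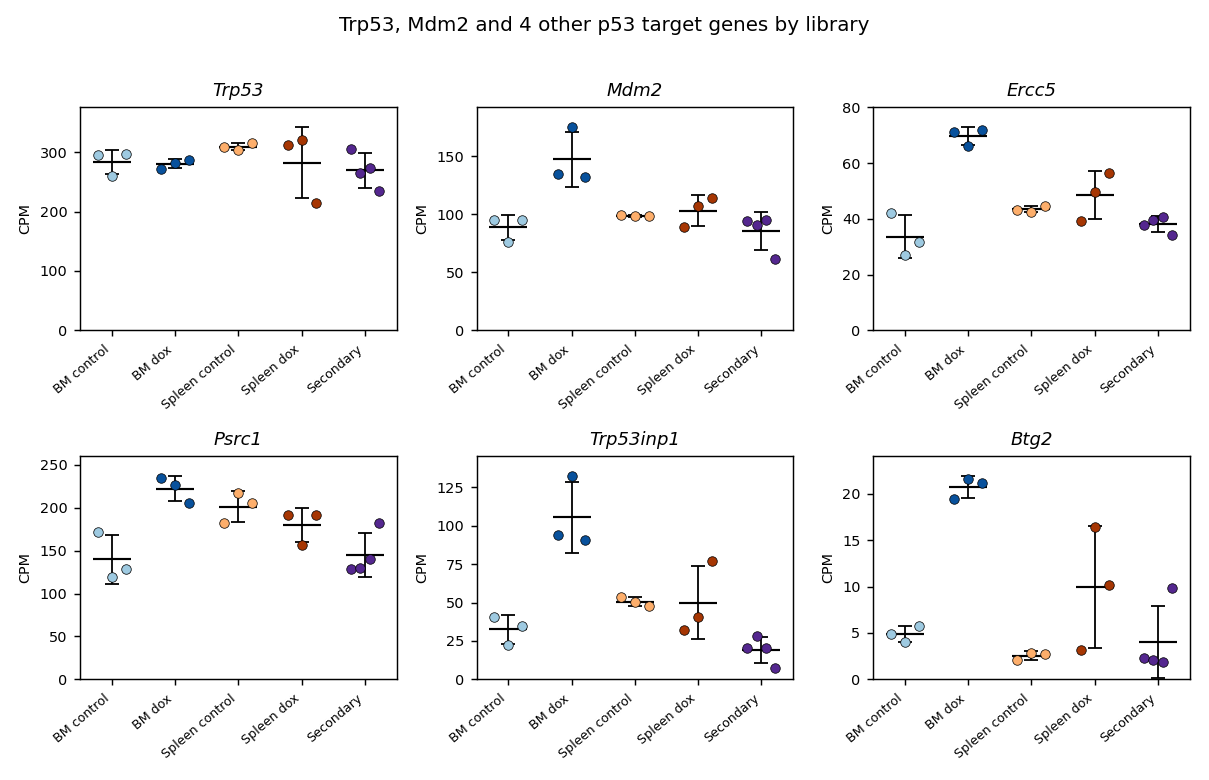
CPM (linear axis from 0) of Trp53, Mdm2, Ercc5, Psrc1, Trp53inp1 and Btg2 in each of the 16 libraries, with group means as long bars and the SD as whiskers. The 3 bone marrow doxycycline libraries of Ercc5, at 66.0 to 71.7 CPM, lie above every other library, while Trp53 spans 214 to 321 CPM with no such step. Btg2 was added after its values were seen.

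Among the metabolism genes, Tigar (chromosome 6, 127085116 to 127109557, minus strand), whose product lowers glycolytic flux and protects from oxidants, fell from 3.63, 2.79 and 2.51 CPM to 0.427, 0.295 and 0.553 CPM. In counts this was 59 to 89 per library in controls and 8 to 14 under doxycycline, with no overlap. The log2 fold change was -2.80 ± 0.66, a 6.95-fold fall, with an adjusted p of 0.0255. Sesn1 had 59.7 to 78.9 and 64.6 to 75.7 CPM (log2 0.04 ± 0.12, adjusted p = 0.904), and Fdxr, which encodes ferredoxin reductase, 36.9 to 48.9 and 38.3 to 45.1 CPM (log2 0.00 ± 0.23, adjusted p = 0.997). The reductase gene Dcxr had 10.8 to 13.5 and 13.7 to 19.8 CPM (log2 0.48 ± 0.25, adjusted p = 0.289), and Ephx1 was at 2 to 15 counts per library.

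Erythroid markers moved with this comparison. The sum of 12 erythroid genes was 3007 to 5242 CPM in bone marrow controls and 49865 to 62394 CPM under doxycycline, 11 of the 12 rose, and Hba-a2 was the most abundant under doxycycline; the part of these cells or transcripts in the p53 target values was not tested. The sum of 11 neutrophil genes was 923 to 1380 and 338 to 682 CPM, and that of 9 stromal and endothelial genes, nearly all of it Cxcl12, 107 to 127 and 200 to 206 CPM. B and plasma cell, T and NK cell and macrophage sums were at most 30.2 CPM in both groups.

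In spleen, 7 days of doxycycline gave no called p53 target gene with all libraries in the fit. edgeR called 0 of 33 higher and 0 lower, where 0.568% and 0.173% of all genes were called, and 4 were at an unadjusted p under 0.05, against 1788 of 14435 genes. The DESeq2 Wald test called Btg2 higher and limma-voom called Eda2r lower. For these tests and the other fits below, the shares of all genes called are not given here. Btg2 had 2.07, 2.88 and 2.77 CPM in spleen controls and 3.21, 16.4 and 10.2 CPM under doxycycline, apart and higher (log2 1.94 ± 0.63, adjusted p = 0.174). Apaf1 had 142, 125 and 131 CPM and then 85.4, 100 and 106 CPM, apart and lower (log2 -0.45 ± 0.34, adjusted p = 0.675). Without secondary disease replicate 4 both were called, with standard errors of 0.41 and 0.11 and adjusted p of 0.0221 and 0.0374, and without spleen doxycycline replicate 1, or with the replicate number as a block, Btg2 was called higher. Groups did not overlap in 3 genes higher, against 9.33% of all genes, and in 8 lower, against 10.7%. The median log2 fold change was -0.13 over the 33 genes and 0.02 over all genes.

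Cdkn1a had 213, 237 and 237 CPM in spleen controls and 187, 136 and 132 CPM under doxycycline. The groups were apart, with the lower values under doxycycline, but the log2 fold change of -0.59 ± 0.36 did not pass (adjusted p = 0.568). Mdm2 had 99.8, 98.4 and 98.5 CPM and then 88.9, 107 and 114 CPM, with overlap and a log2 fold change of 0.06 ± 0.18. Ercc5 had 43.3, 42.6 and 44.7 CPM and then 39.2, 49.7 and 56.5 CPM, Psrc1 182, 217 and 205 CPM and then 191, 157 and 191 CPM, and Trp53inp1 53.5, 50.2 and 47.8 CPM and then 32.0, 40.7 and 76.7 CPM. In none of these 3 were the groups apart.

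The spleen doxycycline libraries differed widely among themselves. Eda2r had 0.739, 1.72 and 6.07 CPM there against 9.37, 9.58 and 8.20 CPM in spleen controls, Tigar 3.53, 0.439 and 2.45 CPM against 2.99, 3.91 and 3.02 CPM, and Perp 117, 16.6 and 393 CPM against 83.3 to 88.9 CPM. Replicate 2 had the lowest Tigar and Perp and the highest Btg2 (16.4 CPM) of the 3. The erythroid sums of the same libraries were 6297, 89222 and 42191 CPM in that order, against 3588 to 5709 CPM in spleen controls. The progenitor sums were 654 to 2286 CPM under doxycycline and 2610 to 2696 CPM in spleen controls, and the part of either set of markers in these values was not tested.

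**Figure D4:**
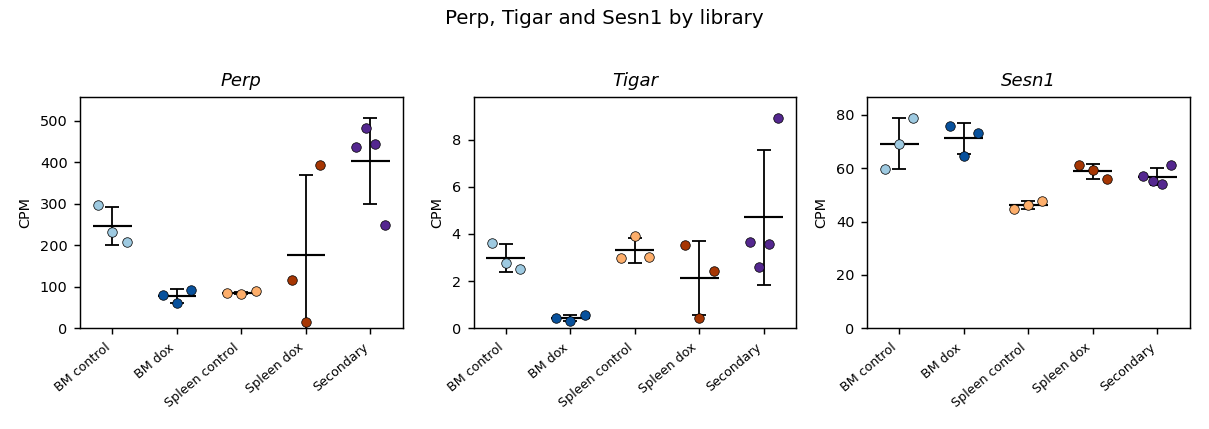
CPM (linear axis from 0) of Perp, Tigar and Sesn1 in each of the 16 libraries, with group means as long bars and the SD as whiskers; Perp and Sesn1 were added after their values were seen. The Tigar values in bone marrow doxycycline, 0.295 to 0.553 CPM, lie below all others except spleen doxycycline replicate 2 at 0.439 CPM, and Perp in spleen doxycycline runs from 16.6 to 393 CPM.

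The doxycycline effect in spleen minus that in bone marrow was tested as an interaction. edgeR called 0 of 33 genes in either direction, where 0.0277% of all genes were called higher and 0.0208% lower. By edgeR 13 of the 33 were at an unadjusted p under 0.05, against 1102 of 14435 genes. The DESeq2 Wald test called 4 lower (Aen, Eda2r, Ercc5 and Psrc1) and limma-voom 1 lower (Eda2r). The shares of all genes called under these other tests, or with a library left out, are not given here. The difference was below 0 in 25 of 33 genes, with a median of -0.41 against 0.05 over all genes. It was -1.71 ± 0.51 for Cdkn1a (adjusted p = 0.302), -3.71 ± 0.84 for Eda2r (adjusted p = 0.143) and -0.90 ± 0.23 for Ercc5 (adjusted p = 0.201). Without spleen doxycycline replicate 2, Aen and Eda2r were called lower and Perp and Tigar higher, and without replicate 3, Eda2r lower. Of the 4 genes that rose in bone marrow, edgeR thus called the difference for none, and the Wald test for Ercc5 and Psrc1.

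Under doxycycline edgeR called no p53 target gene between the tissues either. It called 0 of 33, where 0% of all genes were called higher in spleen and 0.0485% lower. By edgeR 6 of 33 were at an unadjusted p under 0.05, against 1569 of 14435 genes. The DESeq2 Wald test called Tigar higher and limma-voom none. The shares of all genes called under these other tests, or with a library left out, are not given here. Libraries were apart in 1 gene higher in spleen, against 5.96% of all genes, and in 8 lower, against 9.53%. Cdkn1a, with 129, 246 and 152 CPM in bone marrow and 187, 136 and 132 CPM in spleen, differed by -0.21 ± 0.36, against 1.49 ± 0.37 between the tissues of control mice. Mdm2 differed by -0.51 ± 0.18 (adjusted p = 0.283) and Ercc5 by -0.52 ± 0.16 (adjusted p = 0.232). Without spleen doxycycline replicate 2, Perp and Tigar were called higher in spleen, and without secondary disease replicate 4 Tigar was. Neutrophil sums were 338 to 682 CPM in bone marrow doxycycline and 16.9 to 163 CPM in spleen doxycycline, with 11 of 11 genes apart and lower in spleen (median log2 fold change -3.08). Stromal and endothelial sums were 200 to 206 and 24.0 to 181 CPM, and the part of these markers was not tested.

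In secondary disease, 3 p53 target genes were lower than in spleen controls, 1 of arrest and 2 of death. Cdkn1a, Eda2r and Tnfrsf10b fell, and none rose, by edgeR, where 1.28% of all genes were called lower and 0.748% higher. Groups did not overlap in 16 genes lower, against 12.4% of all genes, and in 2 higher, against 8.88%. The median log2 fold change was -0.29 over the 33 genes and 0.02 over all genes, and 15 of 33 were at an unadjusted p under 0.05, against 2177 of 14435 genes. Cohort, treatment and time differ between these groups as well as the state of disease, and cannot be told apart. This comparison shares its controls with that of doxycycline in spleen.

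Cdkn1a had 213, 237 and 237 CPM in spleen controls and 45.5, 91.7, 81.0 and 54.0 CPM in secondary disease. All 4 secondary libraries were below all 3 controls. The log2 fold change was -1.75 ± 0.34, a 3.36-fold fall, with an adjusted p of 0.0176, and without secondary disease replicate 4 it was -1.65 with 0.0264. The call was lost when secondary disease replicate 1 (adjusted p = 0.0513) or any spleen control (adjusted p of 0.0608, 0.0798 and 0.0820) was left out, at log2 fold changes of -1.81 to -1.59, and with the replicate number as a block (log2 -1.65, adjusted p = 0.052). The secondary disease values lay in the range of the bone marrow controls, 51.1 to 135 CPM, or below it.

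Eda2r (chromosome X, 97333840 to 97377216, minus strand) fell from 9.37, 9.58 and 8.20 CPM to 1.37, 1.17, 1.56 and 0.954 CPM, with no overlap (log2 -2.83 ± 0.55, a 7.10-fold fall, adjusted p = 0.0187). Tnfrsf10b (chromosome 14, 69767472 to 69784411, plus strand), which encodes the mouse receptor for the death ligand TRAIL, fell from 1.19, 2.66 and 1.08 CPM to 0.124, 0.156, 0 and 0 CPM. In counts this is 27, 62 and 44 against 3, 4, 0 and 0, so 3 of the 4 secondary libraries were at or under the floor of 3 counts, and the fitted log2 fold change of -4.33 ± 0.86 (adjusted p = 0.0193) depends on how zeros are treated. Eda2r was not called when secondary disease replicate 1, replicate 2 or any 1 of the spleen controls was left out, and Tnfrsf10b when any 1 of the spleen controls was. The Tnfrsf10b call was also lost with no filter on low counts (adjusted p = 0.0787) and with only the 2 groups in the fit (adjusted p = 0.0751), and with a mean count of at least 50 the gene was not tested.

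Secondary disease replicate 4 changed the count in the other direction. Without it 5 genes were called lower, the 3 above with Plk3 (log2 -1.86, adjusted p = 0.0118) and Psrc1 (log2 -0.60, adjusted p = 0.0295). The share of all genes called without this library is not given here. With it Plk3 had 6.29 to 6.87 CPM in controls and 1.16 to 4.51 CPM in secondary disease, where 4.51 CPM is replicate 4 (log2 -1.42 ± 0.43, adjusted p = 0.120), and Psrc1 182 to 217 and 128 to 182 CPM. Plk2 and Ephx1 show the reverse: their log2 fold changes of 4.31 ± 1.81 and 3.99 ± 1.51, neither called, became -1.40 and -0.26 without that library. Btg2 and Fas changed sign as well, from 0.61 ± 0.58 and 0.83 ± 0.97 to -0.31 and -0.43, and were not called in either fit. Markers of macrophages summed to 82.0 CPM in replicate 4 and 9.10 to 33.9 CPM in the other 3, and their part was not tested.

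Of the arrest genes not called, Zmat3 had 52.1 to 58.9 CPM in spleen controls and 19.8 to 32.9 CPM in secondary disease (log2 -1.02 ± 0.33, adjusted p = 0.152). Of the death genes, Trp53inp1 had 47.8 to 53.5 and 7.72 to 27.9 CPM (log2 -1.39 ± 0.36, adjusted p = 0.0704), and Aen 109 to 115 and 69.6 to 91.3 CPM (log2 -0.47 ± 0.12, adjusted p = 0.0794), both apart. The 2 genes apart and higher were Perp, at 83.3 to 88.9 and 250 to 483 CPM (log2 2.23 ± 0.66, adjusted p = 0.117), and the metabolism gene Sesn1, at 44.6 to 47.7 and 54.0 to 61.2 CPM (log2 0.30 ± 0.11, adjusted p = 0.213). Mdm2 had 99.8, 98.4 and 98.5 CPM against 94.2, 90.6, 95.5 and 61.3 CPM, a log2 fold change of -0.21 ± 0.16. Ercc5 had 43.3, 42.6 and 44.7 against 37.9, 39.4, 40.8 and 34.2 CPM (log2 -0.19 ± 0.15), and no repair gene was at an unadjusted p under 0.05.

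Erythroid sums were 4871 to 7574 CPM in secondary disease and 3588 to 5709 CPM in spleen controls, with 0 of 12 genes called, and neutrophil sums 2.62 to 69.7 and 53.2 to 170 CPM. In secondary disease replicates 3 and 4, 3 of the 11 neutrophil genes were at 0. Stromal and endothelial sums were 111 to 186 CPM in secondary disease and 79.4 to 84.7 CPM in spleen controls; 5 of the 9 genes were tested, all 5 with a log2 fold change above 0 (median 2.18) and none called. Progenitor sums were 1001 to 2529 and 2610 to 2696 CPM. The part of these markers in the p53 target values was not tested.

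**Figure D5:**
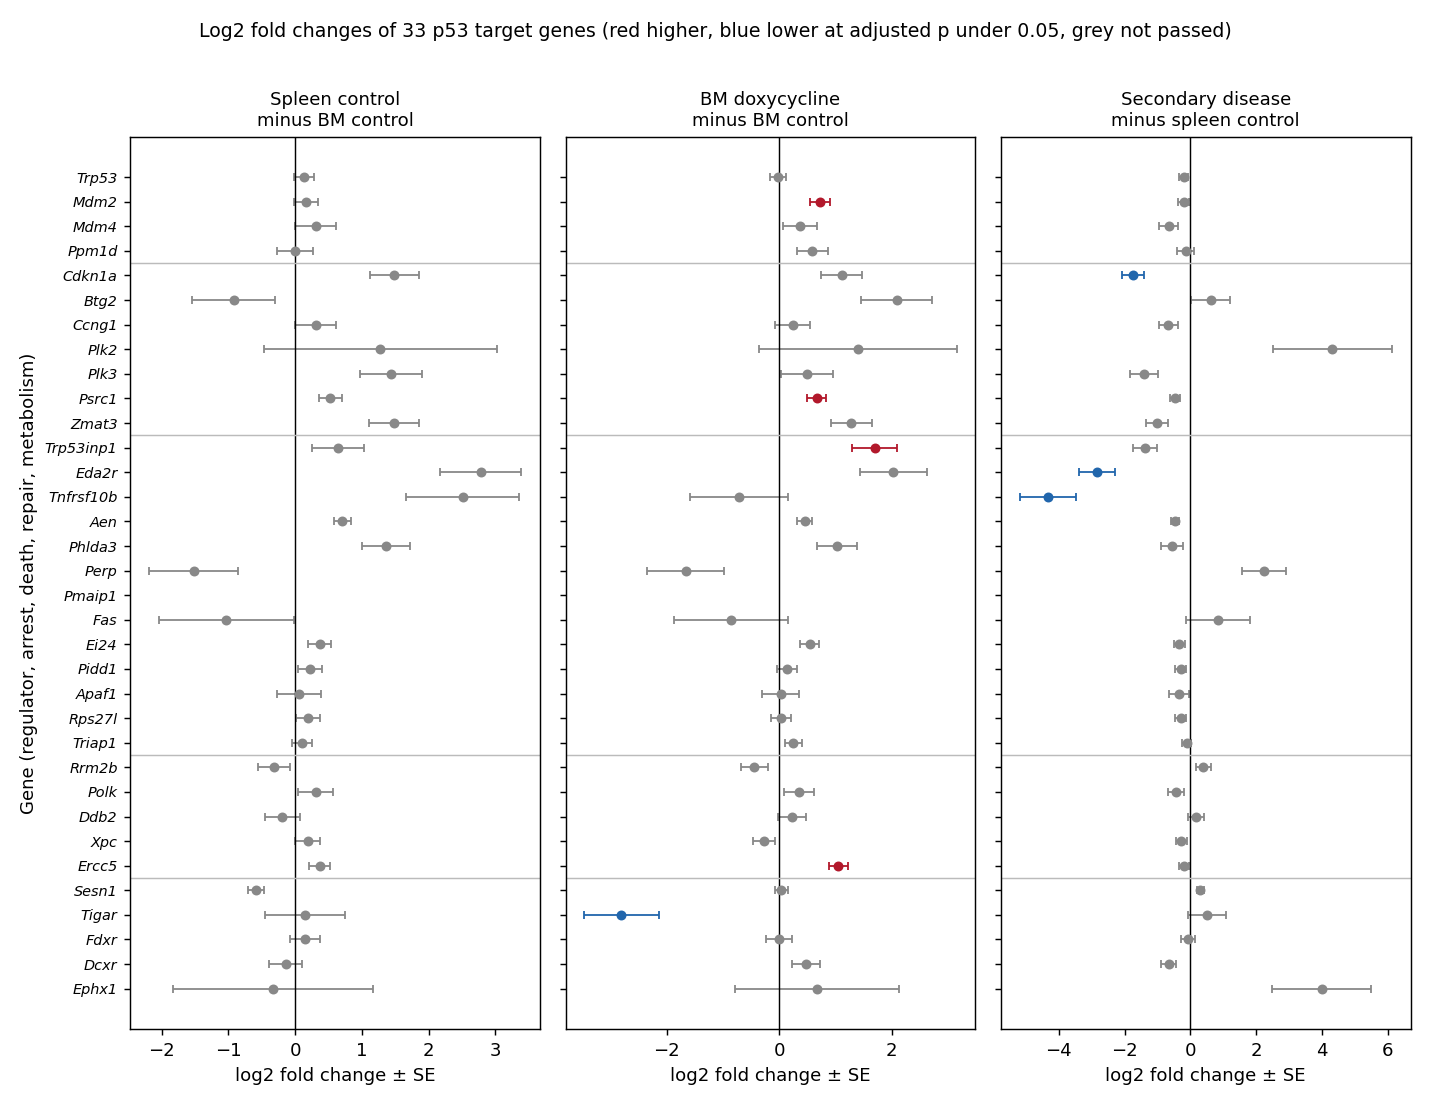
Log2 fold changes with standard errors as whiskers for the 33 tested genes, ordered by role, in 3 comparisons; red and blue points were called higher and lower at an adjusted p under 0.05, and grey points were not called. The left panel has no coloured point, the middle panel 4 red and 1 blue, and the right panel 3 blue. The left and middle panels share the bone marrow controls, and the left and right panels the spleen controls.

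Set against spleen doxycycline, secondary disease gave no gene called by edgeR. It called 0 of 33, where 0.222% of all genes were called higher and 0.707% lower. By edgeR 11 of 33 were at an unadjusted p under 0.05, against 2515 of 14435 genes. The DESeq2 Wald test called 4 lower (Cdkn1a, Dcxr, Tnfrsf10b and Trp53inp1) and limma-voom none. The shares of all genes called under these other tests, or with a library left out, are not given here. Groups did not overlap in 0 genes higher, against 3.09% of all genes, and in 5 lower, against 4.14%. Cdkn1a had 187, 136 and 132 CPM under doxycycline and 45.5, 91.7, 81.0 and 54.0 CPM in secondary disease, apart but not called (log2 -1.15 ± 0.33, adjusted p = 0.112). Dcxr had 10.6 to 17.2 and 4.77 to 8.05 CPM (log2 -0.94 ± 0.23, adjusted p = 0.0666). Without secondary disease replicate 4, Btg2, Dcxr and Trp53inp1 were called lower, without spleen doxycycline replicate 1 Eda2r and Trp53inp1, and without spleen doxycycline replicate 3 Dcxr lower and Perp higher. Erythroid markers differed here too, at 4871 to 7574 against 6297 to 89222 CPM, with 4 of 12 called lower in secondary disease, and their part was not tested.

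Other genes of the pathway were taken from 4 lists. Of 28 further p53 targets, 25 were tested, and under doxycycline in bone marrow 3 were called higher and 1 lower, against 3.96% and 2.61% of all genes, with a median log2 fold change of 0.32. Sesn2, a stress-induced inhibitor of mTORC1, rose from 31.5 ± 9.30 to 125 ± 20.6 CPM (SD, n = 3; log2 1.99 ± 0.32, adjusted p = 0.00552). Ulk1, a kinase that starts autophagy, rose from 83.8 ± 15.0 to 208 ± 16.6 CPM (log2 1.31 ± 0.21, adjusted p = 0.00552). Trp53i13 fell from 19.1 ± 2.21 to 3.99 ± 0.587 CPM (log2 -2.25 ± 0.57, adjusted p = 0.0330). Sesn2 is also a well-known target of the stress factor ATF4. The part of p53 or of any other regulator in the levels of the genes on these lists was not tested.

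In the other comparisons this list gave at most 1 call, of 25 genes tested. Of all genes, 0.568% were called higher under doxycycline in spleen. In secondary disease 1.28% were called lower against spleen controls and 0.707% against spleen doxycycline. The antioxidant enzyme gene Gpx1 rose under doxycycline in spleen, from 547 ± 49.6 to 1280 ± 273 CPM (log2 1.23 ± 0.18, adjusted p = 0.0193). Pml, which organises nuclear bodies that hold p53 cofactors, fell in secondary disease from 169 ± 7.24 (n = 3) to 72.2 ± 6.29 CPM (n = 4) against spleen controls (log2 -1.23 ± 0.25, adjusted p = 0.0212). Sesn2 was lower in secondary disease than in spleen doxycycline, at 28.1 ± 6.51 (n = 4) against 69.0 ± 34 CPM (n = 3; log2 -1.30 ± 0.28, adjusted p = 0.0485). edgeR called 0 of 25 between the control tissues, between tissues under doxycycline and in the interaction. At an unadjusted p under 0.05 were 9, 3 and 9 of the 25 in these comparisons, against 999, 1569 and 1102 of all 14435 genes.

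Of 23 genes acting upstream of p53, 21 were tested and 1 was called, in 1 of the 7 comparisons, lower under doxycycline in bone marrow, where 2.61% of all genes were called lower. Trp53bp1, a scaffold at DNA breaks, fell under doxycycline in bone marrow from 77.1 ± 6.78 to 53.3 ± 2.15 CPM (SD, n = 3; log2 -0.53 ± 0.13, adjusted p = 0.0272). Cdkn2a, whose p19Arf product blocks Mdm2, was called in none of the 7; it had 5.72 to 26.4 CPM in bone marrow controls and 25.6 to 29.7 CPM in spleen controls. Of 5 other CDK inhibitor genes, 4 were tested, and Cdkn1b, which encodes p27, rose under doxycycline in bone marrow from 84.1 ± 7.16 to 144 ± 2.60 CPM (log2 0.78 ± 0.19, adjusted p = 0.0278). Of 22 cell cycle genes that p21 represses through the DREAM complex, edgeR called 0 in each of the 7 comparisons. At an unadjusted p under 0.05 were 3 for doxycycline in bone marrow, against 3159 of 14435 genes. Doxycycline in spleen gave 1 and the control tissues 1, against 1788 and 999. The interaction gave 4 and the tissues under doxycycline 4, against 1102 and 1569. Secondary disease gave 0 against spleen controls and 3 against spleen doxycycline, where all genes gave 2177 and 2515. The median log2 fold change of the 22 genes was -0.15 for doxycycline in bone marrow, -0.12 for spleen against bone marrow controls and -0.17 for secondary disease against spleen controls, beside -0.02, -0.01 and 0.02 over all genes. It was 0.15 for doxycycline in spleen, 0.30 for the interaction and 0.20 between tissues under doxycycline, beside 0.02, 0.05 and 0.03 over all genes, and -0.31 for secondary disease against spleen doxycycline, beside -0.01.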

How the data were processed

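The data are 16 RNA sequencing libraries of GFP-sorted leukaemia cells in 5 groups. Libraries were prepared from oligo-dT-enriched RNA, per the labels' protocols. The authors deposited expected counts per gene, estimates that need not be whole, and a TPM file per library. Trim Galore, FastQC, MultiQC, STAR, RSEM and the build GRCm38 are named in the submitters' processing notes; versions and strand are not given in the sources used here. Groups and replicate numbers are from the sample titles. The deposited TPM values served to compare levels between genes and to check the columns (16 of 16 libraries matched their own count column best).

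Expected counts were rounded and tested with edgeR 4.0.16 in R 4.3.3 (filterByExpr, TMM, glmQLFit with robust estimation, glmQLFTest, two-sided) in 1 model with a mean per group. Of 55487 genes 14435 passed the filter, and p-values were adjusted over them by the Benjamini-Hochberg method within each of 7 comparisons. Standard errors were obtained from the F statistic of each test, as the size of the log2 fold change divided by the root of F. Groups are called apart where their CPM do not overlap. Replicates of a group differed by more than sampling noise (chi-square per degree of freedom of at least 7.47).

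The fit was repeated with each library left out, with only the groups compared, with a block for the replicate number, with median-of-ratios size factors, without the filter on low counts, and with a minimum mean count of 50. DESeq2 1.42.0 (Wald test) and voom in limma 3.58.1 served as other tests. The members and gene lists were chosen with earlier results of these data known. Named with a value in every library are the members called in at least 1 comparison, Trp53, Cdkn1a and Mdm2; others are given by range, and up to 4 genes of each other p53 list with the smallest p, of which 1 further p53 target, counted in its list, is not reported here. Members shown by library beyond these were chosen after their values were seen. Coordinates are from GENCODE M21, and promoters from RefSeq were searched on both strands with Python 3.11.15. On simulated counts, 37% of 2-fold and 91% of 4-fold changes were recovered for doxycycline in bone marrow (14190 genes), and 41% and 84% for secondary disease against spleen controls (14180 genes). Counts of 3 or fewer in a library were taken as its floor; depth limits the genes with few reads, and such limits cover counting error only.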

Additional observations from a re-analysis of the deposited data

Results flagged for a closer look

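In 8 of the 34 genes, secondary disease replicate 4 lay far from the other 3 libraries of its group, by the gap to the nearest library relative to the whole range (Dixon's criterion). It was the lowest for Mdm2, at 61.3 CPM against 90.6 to 95.5, for Apaf1, at 34.3 CPM against 122 to 132, and for Polk, at 15.1 CPM against 31.7 to 34.2. It was the highest for Btg2, at 9.80 CPM against 1.83 to 2.32, Plk2, at 84.7 CPM against 0.0782 to 0.952, and Tigar, at 8.93 CPM against 2.62 to 3.68. The same held for Fdxr, at 54.5 CPM against 38.5 to 41.1, and Ephx1, at 10.3 CPM against 0.0782 to 0.166. Chance puts about 1 in 20 groups past this criterion. It was applied to the 4 secondary disease libraries, of which none but replicate 4 was past it, and not to the groups of 3. The share of all genes past it was not counted, so the 8 genes are not read as a trait of p53 targets. Over all genes with enough counts, chi-square per degree of freedom was 252 to 277 between replicate 4 and the others of its group. Among those others it was 10.2 to 31.1.

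In 3 genes every bone marrow doxycycline library was above, and every spleen doxycycline library below, all controls of its tissue. The doxycycline effect in spleen minus that in bone marrow was -1.43 for Plk3, -3.71 for Eda2r and -0.73 for Aen on the log2 scale. By edgeR's quasi-likelihood test of that difference the adjusted p were 0.642, 0.143 and 0.201. Taken singly, 23.1% of all genes tested were apart and higher under doxycycline in bone marrow, and 10.7% apart and lower in spleen. The share of all genes with both was not counted, so nothing is read from the number of genes.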

How the results depend on the processing

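Numbers of called p53 target genes are given as higher and lower. Between control tissues (0 and 0), a mean count of at least 50 gave 1 higher, the DESeq2 Wald test 5 and 1, limma-voom 4 and 1, and only the groups compared 8 and 3. For doxycycline in bone marrow (4 and 1), no filter gave 1 and 0, a mean count of at least 50 gave 7 higher, the DESeq2 Wald test 11 higher, limma-voom 7 higher, and only the groups compared 12 and 3. For doxycycline in spleen (0 and 0), the DESeq2 Wald test gave 1 higher and limma-voom 1 lower. In the interaction (0 and 0) they gave 4 lower and 1 lower, and between tissues under doxycycline (0 and 0) the Wald test gave 1 higher. For secondary disease against spleen controls (0 and 3), the Wald test gave 1 and 6 and only the groups compared 1 higher, with Zmat3 among the 3 lower in place of Tnfrsf10b. Against spleen doxycycline (0 and 0) the Wald test gave 4 lower. With 1 library left out, the counts ran from 0 to 9 higher and 0 to 1 lower for doxycycline in bone marrow, 0 to 1 and 0 to 1 in spleen, 0 to 2 and 0 to 2 in the interaction, 0 to 2 and 0 to 1 between control tissues and 0 to 2 and 0 to 0 between tissues under doxycycline. For secondary disease they ran from 0 to 0 higher and 0 to 5 lower against spleen controls and from 0 to 1 and 0 to 3 against spleen doxycycline. The share of all genes called under each setting is not given beside these counts, here or in the Results. A higher count is thus not read as a stronger response of these genes, and the cause of these shifts was not tested.

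Same-numbered libraries of 2 groups had correlations of deviations from -0.34 to 0.15. Between bone marrow and spleen controls these were -0.11, 0.05 and 0.15, and replicates 2 and 3 matched their own number best. Between the tissues under doxycycline they were -0.09, 0.04 and 0.08, and replicate 3 did so. With 3 libraries a group, the replicate number neither shows nor excludes that the 2 tissues are from the same mice. As a block, the number gave 1 higher and 1 lower between control tissues, 8 higher for doxycycline in bone marrow, 1 higher in spleen and 1 lower for secondary disease against spleen doxycycline; Cdkn1a in secondary disease against spleen controls then had a log2 fold change of -1.65 and an adjusted p of 0.052.

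Small values changed sign. Trp53 for doxycycline in bone marrow went from -0.02 to 0.00 with DESeq2 size factors, a mean count of at least 50 or the Wald test, and ran from -0.10 to 0.02 with 1 library left out. Between tissues under doxycycline it was -0.01 with a mean count of at least 50 and with limma-voom, and -0.09 to 0.18 with 1 library left out. On leaving out 1 library it ran from -0.23 to 0.03 for doxycycline in spleen, -0.22 to 0.05 in the interaction and -0.24 to 0.03 in secondary disease against spleen doxycycline. Mdm2 in spleen then ran from -0.02 to 0.16 and Cdkn1a between tissues under doxycycline from -0.39 to 0.11. No other value of Trp53, Cdkn1a or Mdm2 changed direction under these alternatives, nor did the other 6 called genes in the comparison that called them. With 3 or 4 libraries a group and about 4 in 10 simulated 2-fold changes recovered, small changes of single genes can be missed.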
